A study of Homo sapiens with 9 samples.

Results

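APP is the gene of the amyloid precursor protein, and its locus was 1 of 61 distinct regions chosen by the study for capture. In hg19 the gene (ENSG00000142192) lies on the minus strand of chromosome 21, from 27252846 to 27543446, a length of 290601 bases, with the promoter at the high end. The captured region ran from 27076705 to 27583249 on chromosome 21, which is 507 kb, and touched 52 bins of 10 kb. Of these, 48 had values in all 4 capture libraries, out of 5890 such capture bins in the series, and they formed 1128 pairs. In Hi-C the locus was followed over 3 Mb in 75 of 69621 bins of 40 kb. The gene was picked by its name and place with its contact values already known, so the differences between RIS and growing cells below describe the locus and are not an independent test of it.

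The libraries came from IMR90, a human lung fibroblast line, at passage 20 to 25, and all cells carried ER:HRAS(G12V), an oncogenic HRAS that becomes active when 4-hydroxytamoxifen (4OHT) is added. Growing cells received no 4OHT, and RAS-induced senescent (RIS) cells received 100 nM 4OHT for 6 days. There were 3 growing and 2 RIS Hi-C libraries and 2 growing and 2 RIS capture Hi-C (cHi-C) libraries, and growing Hi-C replicate 3 also carried MSCV Vector. No library came from 4OHT-treated cells without the construct, so the drug and the oncogene cannot be told apart. The recovered contacts numbered 154318992 to 180775315 per growing and 109967509 to 150689993 per RIS Hi-C library, and 149302402 to 171727363 per growing and 69114491 to 99773490 per RIS capture library, so the RIS values rest on fewer contacts in both assays. Exact permutation tests over libraries cannot give a p below 0.333 with 2 against 2 libraries or below 0.1 with 3 against 2. The cHi-C libraries were made to match the Hi-C libraries, and the assays are not independent of each other.

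APP encodes a single-pass membrane protein that is cut by α-, β- and γ-secretases, and cutting by β- and then γ-secretase releases the amyloid-β peptide. Its promoter is rich in G and C, lacks a TATA box and holds a CTCF-binding element known as APBβ. CTCF is the zinc-finger protein at which cohesin, the ring complex that extrudes chromatin loops, tends to stop, and contacts between the promoter and distant sites are one outcome that Hi-C can read.

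The promoter sequence is shown because every promoter contact below starts from the bin that holds it, and the HindIII site is shown because capture Hi-C reads contacts only from the ends of HindIII fragments. Both are written 5′ to 3′ on the strand of the gene. The first covers chr21:27543089-27543338 of hg19, the 250 bases before the annotated start site at 27543088, and capitals mark 2 matches to CTCF-like letters (CC, then 3 bases of any kind, then AGGGG) or to their reverse complement. The second covers chr21:27543553-27543598, and capitals mark the cutting site AAGCTT nearest to the start site, 485 bases before it.
APP promoter: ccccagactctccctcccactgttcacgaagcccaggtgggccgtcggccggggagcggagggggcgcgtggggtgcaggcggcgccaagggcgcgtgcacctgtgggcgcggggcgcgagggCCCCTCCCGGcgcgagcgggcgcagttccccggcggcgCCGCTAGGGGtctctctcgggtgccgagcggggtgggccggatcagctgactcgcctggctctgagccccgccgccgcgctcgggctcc
HindIII site nearest the start site: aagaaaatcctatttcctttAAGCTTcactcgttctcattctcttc
G and C made up 78.8% of the 250 bases. The same letters occurred on either strand in 3030 of 35116 RefSeq promoters (GRCh38.p14), or 8.63%, over the same 250 bases, and a match of letters is not a bound site.

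HindIII sites also set which bins could be read. The 4 bins of the captured region without values in all libraries held 0 HindIII sites, and the other 48 held 1 to 7. One of the 4 held exon 6 and had no contacts in any library. Another held exon 8 and had 267 contacts, all in RIS replicate 2, so contacts of these exons could not be compared by cHi-C. The 9 bins with 1 site had 8017 to 28970 contacts each in growing replicate 1 (median 16753), and the 39 bins with more sites had 11498 to 184653 (median 69252). Values of the bins with few sites therefore mostly rest on fewer contacts.

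From the promoter, the cHi-C contacts relative to distance increased along the gene, and were highest at the opposite end of APP in every library. Each value is the log2 ratio of the observed contact to the mean of that library at the same distance (observed/expected). In the bin at 27250001, which holds the last exon, it was 3.09 and 3.06 in the growing and 2.78 and 2.84 in the RIS libraries, from 943, 802, 481 and 284 contacts. Beyond the gene end, the bin at 27240001 stood at 1.93, 2.00, 1.87 and 1.75 in the same order. Near the promoter, the bin at 27520001 stood below the distance average, at −0.42 and −0.38 in growing cells, against −0.29 and −0.36 in RIS cells. The promoter and the end of the gene, 290 kb apart, thus made more contacts for their distance than the promoter made with the sequence between them, in both states, and the peak stayed at the same bin.

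**Figure D1:**
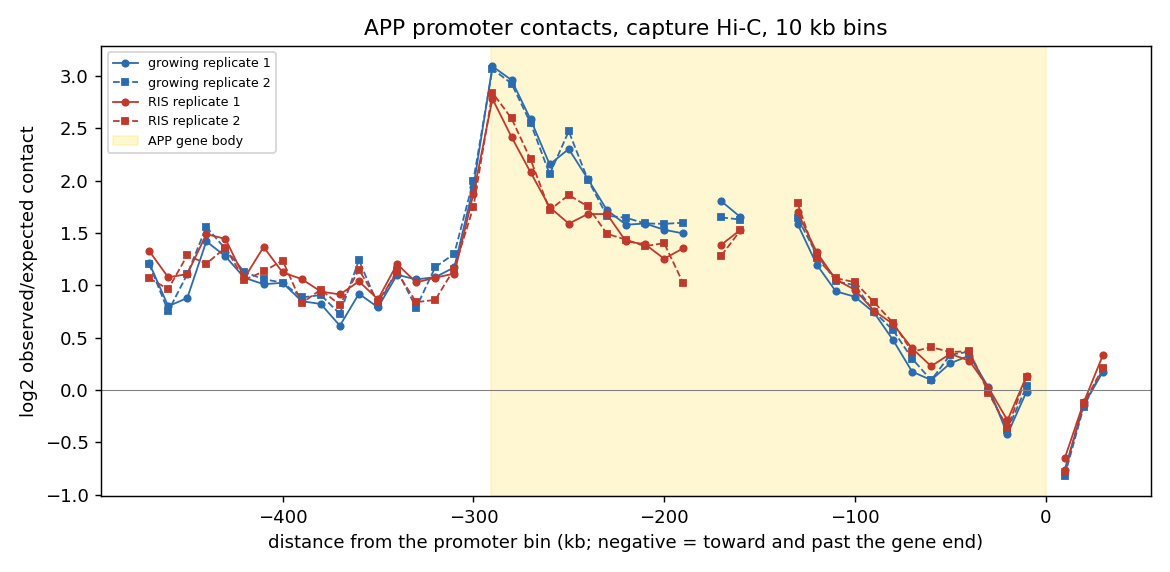
Log2 observed/expected contact of the APP promoter bin with each 10 kb bin of the captured region against its distance from the promoter in kb, 1 line per capture library, with breaks where bins had no values. The highest point of all 4 libraries is at the gene end, and from −290 to −190 kb the RIS libraries run below the growing ones except at −230 kb, where RIS replicate 1 lies between them.

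In RIS cells the promoter made fewer contacts with the 3′ part of its own gene. The gene body was divided into a 3′ segment of 10 bins, from the gene end, a middle segment of 7 bins and a 5′ segment of 8 bins. The mean observed/expected of the promoter with the 3′ segment was 2.26 and 2.26 in the growing and 1.88 and 1.96 in the RIS libraries (log2), a difference of −20.9% in mean contact. With the middle segment it was 1.40 and 1.43 against 1.35 and 1.31, and with the 5′ segment 0.24 and 0.29 against 0.33 and 0.37. So the groups did not overlap in any segment, and the difference went from −0.34 in the 3′ segment through −0.09 to 0.08 in the 5′ segment. With the median over bins the middle segment was at −0.24. For the promoter with the whole gene body, the RIS libraries were below the growing ones in 36.9% of 65 captured genes, so separation is common. The small difference near the promoter turned to −0.038 when contacts before balancing were used. Over the 25 bins of the body the promoter stood at 1.60 and 1.61 in growing cells, against 1.37 and 1.41 in RIS cells, a difference of −0.22 (exact permutation p = 0.333).

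Single pairs show how the difference was spread over the 3′ segment. On scaled values, both RIS libraries were below both growing libraries at all 10 bins, while 30.8% of all capture pairs were so. Limma with Benjamini-Hochberg adjustment on balanced values called none of these 10 pairs. Voom, limma's method for counts, on the recovered contacts called 6 of the 10, all lower, and over all capture pairs it called 5.80% lower. The median voom change of the 10 was −0.41, and it ran from −0.46 to −0.39 with a library left out. The largest fall among the 10 was at 27290001, with 465, 472, 129 and 110 contacts (log2 fold change −1.01, SE 0.15, n = 2 and 2), but that bin is among the least covered. On balanced values its log2 fold change was −0.77, and the total of that bin was also lower in RIS cells (−0.21, log2 share of the library). In the better covered bin at 27260001, which holds exons 16 and 17, the exons that encode amyloid-β, there were 5812, 4908, 2151 and 1512 contacts (−0.64, SE 0.07). The next bin, with exon 15, fell by 0.59 and the bin with exon 14 by 0.58. At the gene end itself the estimate was −0.26 and was not called (voom adjusted p = 0.0863). Outside the 3′ segment, the bin with exon 7, which encodes the protease inhibitor domain present in some APP isoforms, had 1.80 and 1.65 in growing cells, against 1.39 and 1.28 in RIS cells (log2 observed/expected).

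The study lists 3 intervals as partners of the APP promoter, and all lie inside the gene. They were selected by the study on these libraries, so their direction here is no independent evidence. The promoter with the first (27257101 to 27275200) stood at 2.89 and 2.86 in growing cells, against 2.45 and 2.57 in RIS cells (log2 observed/expected). With the second (27301811 to 27304330) it stood at 2.01 and 2.01 against 1.68 and 1.75, and with the third (27325451 to 27340550) at 1.57 and 1.61 against 1.36 and 1.40. All 3 were lower in both RIS libraries than in both growing libraries, and the differences shrank from −0.37 to −0.30 and −0.21 with distance from the gene end.

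On either side of the gene, contacts differed between the states in opposite directions. The downstream side of the captured region, past the gene end, comprised 18 bins with GABPA, ATP5PF and the end of JAM2, and the upstream side, past the promoter, comprised 3 bins. Contacts of the gene body with the downstream side stood at −0.25 and −0.26 in growing cells, against 0.09 and −0.07 in RIS cells, 20.3% higher. Contacts of the body with the upstream side stood at 0.92 and 0.91 against 0.63 and 0.54, a difference of −20.6%. Neither pair of groups overlapped, and no share of other regions was computed for such blocks. By limma on balanced values, all 30 pairs of the upstream side with the 3′ segment were lower. Over the whole body 41 of 81 upstream pairs were lower, with a median change of −0.02. By voom 62 of the 81 were lower, with a median of −0.21. Of these blocks the upstream side and the 3′ segment differed most, with 1.69 and 1.70 in growing libraries and 1.20 and 1.13 in RIS libraries on the log2 scale, or −30.8% in mean contact. The difference with the downstream side was 0.40 in the 5′ segment, 0.35 in the middle segment and 0.12 in the 3′ segment. Without RIS replicate 1 it was 0.22 in the middle and 0.061 in the 3′ segment, and before balancing it was 0.25 in the latter. The gene body with itself stood at 0.79 and 0.81 against 0.68 and 0.66, and within the body the difference was −0.24 in the middle segment, −0.06 in the 5′ segment and 0.07 in the 3′ segment. Before balancing the middle segment was at −0.079 and the 3′ segment at 0.28. The 5′ segment was at 0.014 with the expected value of the captured region. The promoter itself differed little from its growing level with the downstream side, at 1.09 and 1.15 against 1.19 and 1.11, where the groups overlapped. Total contacts of the bins, as a log2 share of the library, differed by 0.13 on the downstream side, −0.17 on the upstream side, −0.11 at the promoter and −0.00 over the gene body, and their part in these differences was not tested.

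**Figure D2:**
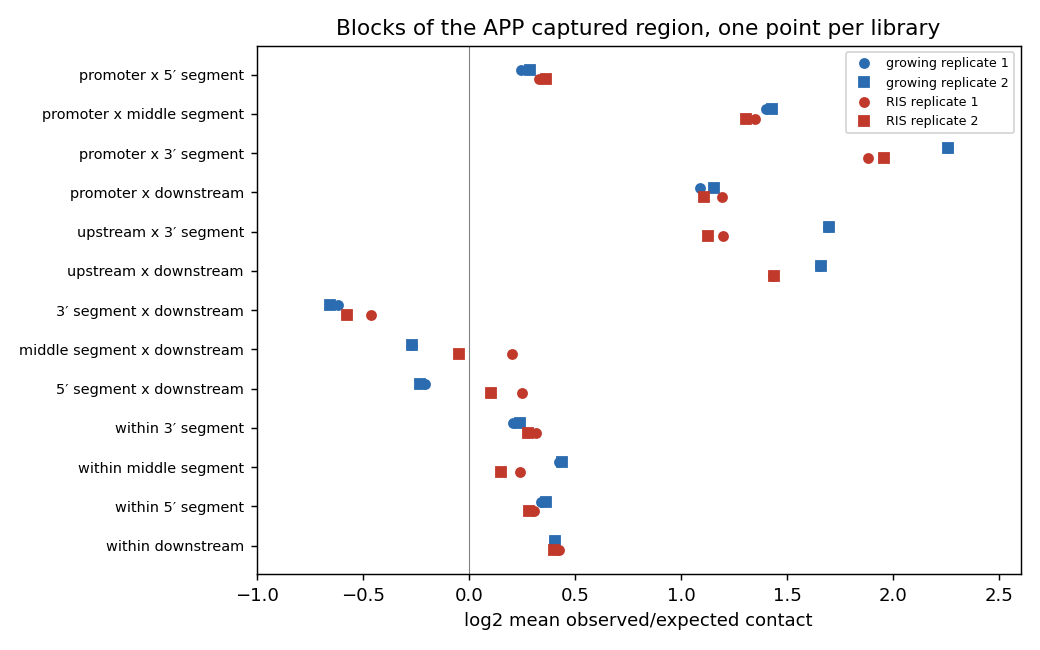
Log2 mean observed/expected contact of blocks of the APP captured region, 1 point per capture library. The widest gap between growing and RIS libraries is for the upstream side with the 3′ segment (1.69 and 1.70 against 1.20 and 1.13), and contacts of all 3 segments with the downstream side lie higher in RIS cells.

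Tests of single pairs differed between limma on balanced values and voom on recovered contacts, and the values and the method were not varied separately. Limma on balanced values called 0 of the 1128 pairs at a false discovery rate of 5%, with 218 at an unadjusted p under 0.05 and a smallest adjusted p of 0.211, and it called 0.0334% of all capture pairs. In simulated data limma found only 0 or 4 of 200 changed capture pairs, so a count of 0 does not show that nothing changed. Voom on the recovered contacts called 395, with 298 gains and 97 losses in RIS cells, where over all capture pairs it called 12.6%, 6.76% higher and 5.80% lower. The voom count changed with the libraries used: it was 105 without growing replicate 1, 115 without growing replicate 2, 238 without RIS replicate 1, and without RIS replicate 2 it was 450. Each of these fits leaves 1 library in a group, which is then assumed to vary like the other group, and the calls over all capture pairs changed too, from 41386 to 11208, 10612, 29439 and 41088 in the same order. Among the 486 pairs between body and downstream side, 178 were called higher and 2 lower, and the higher calls numbered 37, 39, 56 and 230 with the same libraries left out. Of the 30 pairs between the upstream side and the 3′ segment, 0 were called higher and 22 lower, with 18, 13, 18 and 21 lower calls when the libraries were left out. Between the upstream and downstream sides 21 of 54 pairs were called lower, with 7, 3, 12 and 17 when the libraries were left out, and 0 higher. Pairs within the downstream side had no stable direction: their median change was 0.30 by voom, with 76 calls higher and 1 lower, and −0.05 by limma on balanced values.

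**Figure D3:**
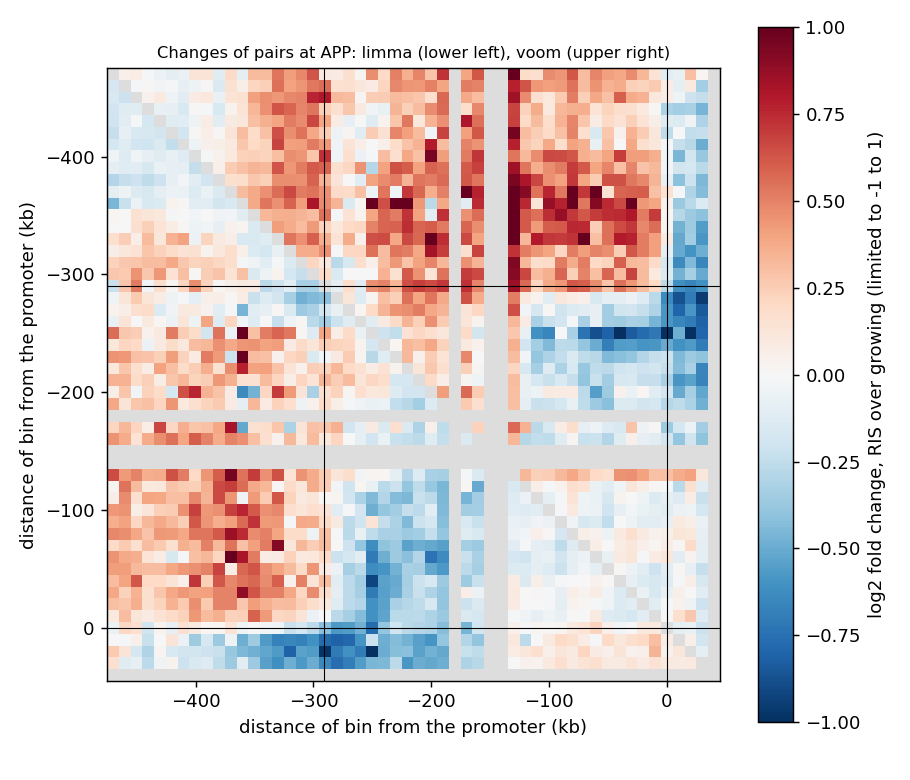
Log2 fold change, RIS over growing, of every pair of 10 kb bins in the captured region by distance from the promoter in kb, limma on balanced values in the lower left and voom on recovered contacts in the upper right, with lines at the gene ends and grey for bins without values. The 5′ and middle parts of the gene with the downstream side are mostly red (higher), and the upstream side with the 3′ part of the gene is blue (lower).

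As limma called none, the pairs with the most extreme changes were taken from those called by voom, and they sat in thinly covered bins. The lowest was between 27290001 and 27560001, upstream of the promoter, with 108 and 132 contacts in growing cells, against 25 and 24 in RIS cells (−1.31, SE 0.27). With a library left out, the voom change of this pair ran from −1.59 to −0.95. The next lowest pair was between 27290001 and 27500001 in the first part of the gene, with 151, 131, 38 and 30 contacts (−1.08, SE 0.23). The highest was between 27170001, past the gene end, and 27480001, which holds exon 2, with 26, 23, 44 and 26 contacts (1.45, SE 0.30). All 3 of the lowest pairs by this rule had 27290001 at one end, and 2 of the 3 highest had 27170001. The totals of these bins differed in the same directions, by −0.21 at 27290001 and 0.24 at 27170001 (log2 share of the library). Voom on recovered contacts does not remove such shifts, and their part was not tested. On balanced values, limma put the changes of the pairs given here at −1.10, −0.92 and 1.35.

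Set beside other captured genes, APP was toward the lower end but not at it. There were 65 captured protein-coding genes of 10 or more bins. For the promoter with its own gene body, 6 of the 65 had a lower change than the −0.22 of APP, and the median was −0.00. In 24 genes both RIS libraries were below both growing ones (36.9%), and in 19 above. For the promoter with its gene end, 10 genes had a lower change than the −0.31 of APP, and the groups were apart in the lower direction in 23 genes (35.4%) and in the higher direction in 23. For the body with itself, 6 genes were lower than APP at −0.13. Captured genes thus differed in either direction.

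In Hi-C, with bins of 40 kb, the promoter again had its highest contact for the distance (log2 observed/expected) within the locus at the gene end. That pair stood at 2.08, 1.98 and 2.06 for growing libraries 1 to 3, and at 1.71 and 1.80 for the RIS libraries, from 306, 318, 300, 156 and 197 contacts (difference −0.29). In the next bin, at 27280001, it stood at 1.70, 1.43 and 1.88 against 1.13 and 1.24. Both RIS libraries were below all growing libraries in both bins, as in 15.7% of all Hi-C pairs. Voom called both pairs lower, with log2 fold changes of −0.40 (SE 0.10) and −0.64 (SE 0.13), where it called 0.378% of all Hi-C pairs lower. Over the 6 body bins tested the promoter stood at 1.36, 1.27 and 1.45 against 1.18 and 1.21 (−0.17, exact permutation p = 0.2). Over all alternatives run, this difference ranged from −0.24 to −0.079. The Hi-C libraries fall into those with few duplicate reads, growing replicates 1 and 2 and RIS replicate 1, and those with many, growing replicate 3 and RIS replicate 2. The difference of the promoter and gene end was −0.32 within the former and −0.26 within the latter, and that of the promoter and body −0.14 and −0.24. The body with itself stood at 0.72, 0.70 and 0.79 against 0.66 and 0.71 and the groups overlapped. Its difference of −0.06 was not called by limma over 2415 genes (adjusted p = 0.212), of which 46.6% were called, and it was 0.01 with the median over pairs in place of the mean.

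Far upstream, outside the captured region, the promoter made more contacts in RIS cells at some bins. Over the 4 bins from 28000001 to 28160000, which begin 480 kb from the promoter bin and were singled out after their values were seen, the promoter stood at 0.15, 0.04 and −0.06 in growing cells, against 0.91 and 0.82 in RIS cells (log2 observed/expected), 76.5% higher. The recovered contacts were 154 to 174 per growing and 175 to 202 per RIS library, although the RIS libraries had fewer contacts in all. The highest of the 4 bins, at 28080001, stood at 0.79, 0.63 and 0.35 against 1.62 and 1.40 (voom log2 fold change 0.78, SE 0.21). Both RIS libraries were above all growing libraries in each of the 4 bins, which their choice by value favours, and the same was found in 14.7% of all Hi-C pairs. Closer to the promoter, both were also above all growing libraries at 27720001, 27760001, 27880001, 27920001 and 27960001 (voom log2 fold change 0.32 to 0.54, none called). They were below at 27680001, and the groups overlapped at 27560001, 27600001, 27640001, 27800001 and 27840001. The higher contact was thus not confined to the 4 bins. The whole gene body with the 4 bins stood at 0.41, 0.30 and 0.22 against 0.70 and 0.58. For the promoter with the 4 bins the difference was 0.82 within the libraries with few duplicates and 0.87 within those with many. These bins hold no protein-coding gene and lie at the strongest border of the locus, described with the insulation scores, between APP and the metalloprotease genes ADAMTS1 and ADAMTS5.

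**Figure D4:**
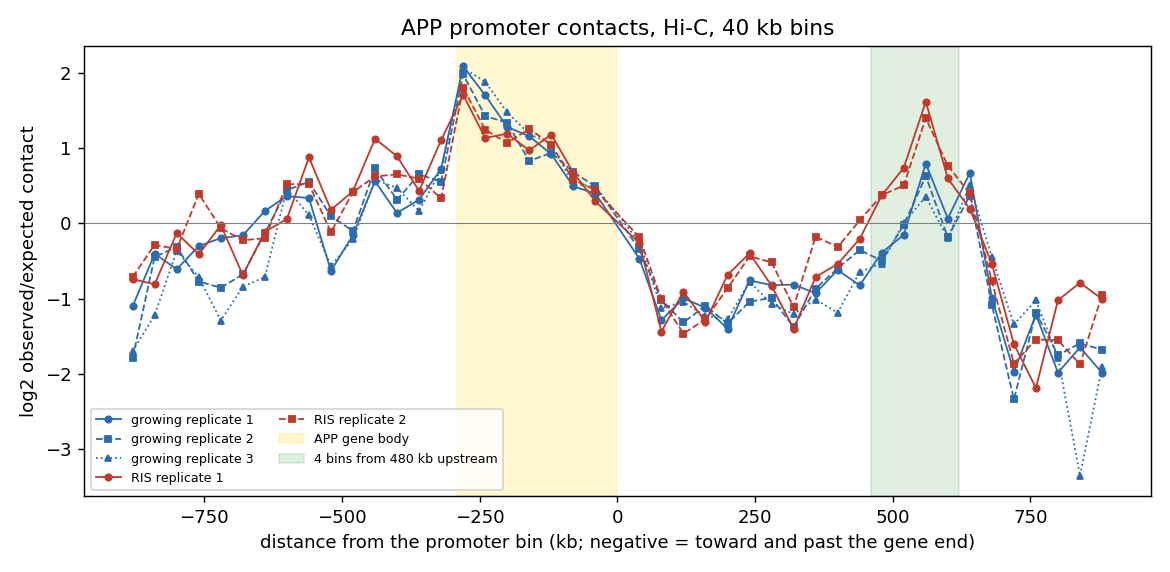
Log2 observed/expected contact of the APP promoter bin with 40 kb Hi-C bins by distance from the promoter in kb, 1 line per library, with the gene body and the 4 bins from 480 kb upstream shaded. In the green band the RIS libraries peak at 1.62 and 1.40, above the growing libraries at 0.79, 0.63 and 0.35.

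Contacts of the promoter with the genes across that border were few, and over both genes together the groups overlapped. With ADAMTS1 and ADAMTS5, extracellular proteases that cut matrix proteoglycans, the promoter stood at −1.34, −1.31 and −0.99 in growing cells, against −1.10 and −1.24 in RIS cells, from 46 to 60 and 31 to 35 contacts. The difference of 0.04 changed sign between the libraries with few duplicates (0.23) and those with many (−0.25). The bins of ADAMTS5 went in opposite directions, each without overlap of the groups. At 28280001 the promoter stood at −1.21, −1.18 and −1.02 against −2.18 and −1.54, and at 28320001 at −1.98, −1.75 and −1.78 against −1.02 and −1.55. On the downstream side, the promoter with GABPA, a subunit of an ETS-family transcription factor, stood at 0.36, 0.54 and 0.53 against 1.01 and 0.64. With JAM2, a junctional adhesion molecule, it stood at 0.01, 0.29 and 0.02 against 0.63 and 0.34, and with MRPL39, a mitochondrial ribosomal protein, at 0.35, 0.50 and 0.30 against 0.52 and 0.52. The finer cHi-C bins of GABPA were mixed on the same measure, with means over the growing libraries of 1.49, 1.31, 1.10, 1.03 and 1.02 from 27100001 on, against 1.35, 1.40, 1.06, 1.25 and 1.18 over the RIS libraries. Voom called only the first of these 5 bins, lower (adjusted p = 0.049), and limma called none. Leaving out RIS replicate 1 took the Hi-C difference from 0.35 to 0.16 for GABPA and from 0.38 to 0.24 for JAM2. With ATP5PF, a subunit of ATP synthase, the promoter stood at 0.56, 0.73 and 0.58 against 1.12 and 0.62, and the difference of 0.25 was 0.0014 when RIS replicate 1 was left out and 0.50 when RIS replicate 2 was. With CYYR1 it stood at −0.79, −0.93 and −1.12 against −0.83 and −0.49, and the difference of 0.28 was 0.46 and 0.11 with the same libraries left out. The groups overlapped for CYYR1 and for ATP5PF.

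In Hi-C the sides of the gene also differed in opposite directions, over wider flanks. The gene body with the 200 kb past the gene end stood at −0.56, −0.50 and −0.60 in growing cells, against −0.06 and −0.29 in RIS cells. The body with the 200 kb past the promoter stood at −0.24, −0.28 and −0.32 against −0.58 and −0.68. The flanks with each other, across the gene, stood at 0.82, 0.82 and 0.93 against 0.48 and 0.56, a difference of −20.8%. The 3 differences were 0.48, −0.32 and −0.34 within the libraries with few duplicates and 0.31, −0.36 and −0.37 within those with many. None of these groups overlapped, although the upstream difference of −0.35 became 0.06 with the median over pairs. Among single Hi-C pairs, the RIS libraries were above all growing ones in 14.7% and below in 15.7%. No share of other genes was computed for these blocks. Of the 1540 Hi-C pairs tested in the 3 Mb, limma called 0, with 171 at an unadjusted p under 0.05, and it called 0.0577% of all Hi-C pairs. In simulated data limma found 0 of 200 changed Hi-C pairs, so this count too does not show that nothing changed. Voom called 46, of which 21 were higher and 25 lower, where it called 1.17% of all pairs, 0.789% higher and 0.378% lower. It called 3 without RIS replicate 1 and 3 without RIS replicate 2, where the single RIS library left is assumed to vary like the growing ones, and 17 without growing replicate 1. The calls over all Hi-C pairs changed alongside, from 24357 to 1806, 1247 and 8885.

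The insulation score is the log2 contact across a bin within 520 kb, relative to the mean over the same chromosome in that library. It is low where few contacts cross and so marks borders. At the promoter bin it was 0.27, 0.24 and 0.28 in growing cells, against −0.00 and −0.00 in RIS cells, a difference of −0.26 (SE 0.03, limma adjusted p = 4.3e-04). At the gene end it was −0.14, −0.10 and −0.13 against 0.10 and −0.01, a difference of 0.17 (SE 0.04, adjusted p = 0.0085). So fewer contacts crossed the promoter and more crossed the gene end in RIS cells, and neither pair of groups overlapped. Such calls were common, since 30.9% of 68187 bins were called higher and 25.0% lower, and 7.70% of bins had a lower change than the promoter. The gene end was not called without RIS replicate 1 (0.11, adjusted p = 0.0633) or on contacts before balancing (0.14, adjusted p = 0.0857), nor the promoter with a window of 1000 kb (−0.02, adjusted p = 0.602). With a window of 280 kb the gene end stood at 0.47 (adjusted p = 0.00105).

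Within the gene 5 of 8 bins were called lower and 1 higher, where over all bins 25.0% were called lower and 30.9% higher. Neighbouring bins share many contacts within the 520 kb window, so the counts of bins here are not counts of separate calls. Past the gene end all 5 bins of the first 200 kb were called higher, and from the promoter to 640 kb upstream 12 of 16 bins were called higher and 1 lower. At the starts of the other 7 protein-coding genes of the 3 Mb, the score was called higher in RIS cells at all 7, from 0.10 at MRPL39 to 0.27 at CYYR1, where over all starts of protein-coding genes 27.1% were called higher. GABPA and ATP5PF start in the same bin and share its value, and with the 520 kb window starts close to each other share many of their contacts, so the 7 are not separate calls. APP was called lower. Over the whole window, genes or not, 41 of 75 bins were called higher and 13 lower, with a median change of 0.15 beside 0.02 over all bins.

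Borders, taken as minima of the score with a prominence of at least 0.1, differed in prominence at the promoter and elsewhere in the window. Just upstream of it, at 27560001, the prominence was 0.127 and 0.118 in the first growing libraries, replicates 1 and 2, against 0.407 and 0.387 in the RIS libraries, and growing replicate 3 had no border there. At 27080001, at the start of GABPA, a border was found in all 3 growing libraries (0.105 to 0.139) and in neither RIS library. The growing values lie close to the cutoff of 0.1. How many borders over the genome differ in these ways was not counted. The strong border at 28080001 or the bin after it was found in all 5 libraries with a prominence of at least 3.18.

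**Figure D5:**
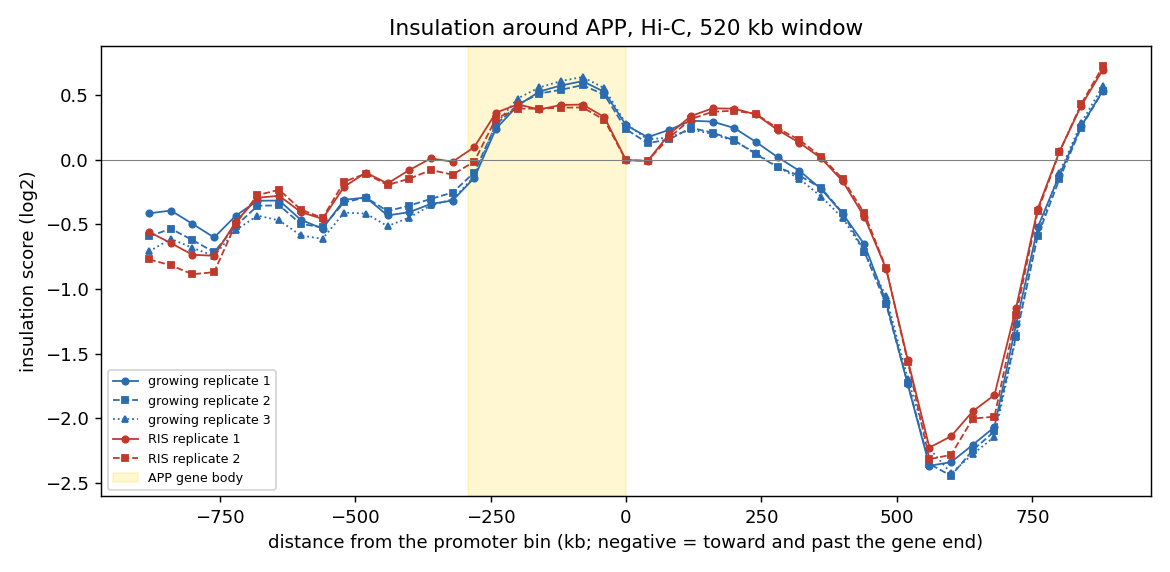
Insulation score (log2, 520 kb window) of 40 kb bins by distance from the APP promoter bin in kb, 1 line per Hi-C library. At the promoter the growing libraries lie at 0.24 to 0.28 and the RIS libraries at −0.00, while past the gene end the RIS libraries lie above the growing ones, and the deep minimum near 560 kb upstream appears in all libraries.

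The first principal component of chromosome 21, positive where genes are dense (the A compartment), was computed in bins of 120 kb. Over APP it was 0.34, 0.40 and 0.57 in growing cells, against 0.83 and 0.67 in RIS cells, positive in all 5 libraries and higher in RIS cells (difference 0.32, exact permutation p = 0.2). In the neighbouring bin past the gene end, from 27120001 to 27240000, the score went from −0.67, −0.61 and −0.58 to 0.30 and 0.28, so it was negative in all 3 growing and positive in both RIS libraries. The bin beyond it, at 27000001, changed sign too, from −0.26, −0.13 and −0.38 to 0.57 and 0.42. Over the chromosome, 39.1% of bins were positive in growing and 49.7% in RIS cells, so sign changes were not particular to this locus. Of the 294 bins of the chromosome, both RIS libraries were above all growing libraries in 134 (45.6%), and below in 51. The difference at APP was 0.46 in the libraries with few duplicates and 0.11 in those with many. The correlation of the component with gene density was only 0.226 to 0.237, and it was the highest among the first 3 components in 4 of the 5 libraries, with another component reaching 0.284, so the A label rests on a weak tie.

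Among 978 protein-coding genes of 200 to 400 kb, those whose Hi-C contacts were most like those of APP were ACBD6, SASH1, NAV1, ENSG00000249209 and CCNY. Likeness was the distance between vectors of log2 observed/expected contact over the 5 libraries, for the gene with itself and with its flanks, and for ACBD6 it was 0.275. The body-with-itself difference of these genes was 0.07, −0.01, −0.05, 0.05 and 0.05, against −0.06 for APP. As the RIS libraries entered the likeness, the choice of these genes itself holds their differences near that of APP.

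Genes that process or bind the APP protein, and the family members APLP1 and APLP2, were looked at through the insulation score at their own starts. Together they are called the APP-processing list. Of 16 such genes, 3 were called higher in RIS cells and 1 lower by limma, where 27.1% of 18375 starts were called higher and 23.6% lower. The higher ones were ADAM9, a metalloprotease with α-secretase activity (0.11), APH1B, a γ-secretase subunit (0.26), and SORL1, a sorting receptor of APP (0.14). The lower one was PSENEN, another γ-secretase subunit (−0.21). The calls changed with the setting: before balancing 2 genes were higher and 0 lower, so that of PSENEN was lost, with a window of 280 kb 1 was higher and 1 lower, with a window of 1000 kb 3 were higher and 3 lower, and with a replicate block 4 were higher and 3 lower. Lower calls outnumbered higher ones without RIS replicate 1, at 2 against 1. The β-secretase gene BACE1 was at −0.10 (adjusted p = 0.126) and its paralogue BACE2 at −0.17 (adjusted p = 0.0523), and neither was called. The median change of the 16 was 0.04, beside 0.01 over all starts.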

How the data were processed

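Reads had been mapped to hg19 by HiC-Pro and cleared of artefacts and duplicate pairs, and the authors deposited 1 balanced (ICE) signal value for each pair of 40 kb bins in Hi-C or 10 kb bins in cHi-C. Balancing gives every bin the same sum, so a gain at some partners of a bin is set against losses at others. Each pair was kept once. A single factor for each bin turned no less than 99.97% of the values into whole numbers, within 0.05 of a contact or, for larger values, within 0.5% of the value, and these recovered contacts give the depth. Signal was scaled to equal totals and divided by the mean of the library at each distance. Pairs were tested with limma 3.58.1 on log2 values (pseudocount 0.5, minimum mean value 5, loess span 0.3, 4 iterations) with Benjamini-Hochberg adjustment over all pairs at 5%, and with voom on recovered contacts. The loess step and the threshold follow the study, whose quasi-likelihood tests of read counts were not repeated. Hi-C pairs reached up to 2 Mb. For single values, exact permutation tests over libraries (two-sided) were used. The scripts were tested on simulated data. With 200 of 20000 capture pairs changed by a factor of 2, limma found 0 (16 false calls) and voom 109 (10 false calls), and with a dispersion of 0.02 limma found 4 (49 false calls) and voom 59 (0 false calls). In the like Hi-C simulation limma found 0 in both cases (6 and 9 false calls), and voom 53 and 31 (0 and 1 false calls). With 200 of 20000 independent insulation scores shifted, limma found 197 (6 false calls). Real scores of neighbouring bins share contacts, so this does not give the error rate for them. The members, gene lists and blocks were chosen with earlier results of these data known, and 1 gene of the APP-processing list is not reported here. The named pairs are those of the promoter with the gene end and with the intervals the study lists, and the 3 lowest and 3 highest called pairs. Over single bin pairs, same-numbered libraries did not deviate together (correlation of deviations 0.0061 for cHi-C and −0.0009 for Hi-C). Counting noise is large in single pairs, so this check cannot exclude pairing. Replicate numbers were not treated as pairs in the main fits, and fits with a replicate block are given below. All p-values refer to the spread between these libraries. Those of limma and voom also draw on the variance over all pairs, bins or genes tested, so they do not measure the spread at APP alone. Intervals from the study's tables gave positions only. The intervals' own values, and ChIP-seq and RNA-seq, were not used here. Software was Python 3.11.15, numpy 2.4.6, scipy 1.17.1, pandas 2.3.3 and R 4.3.3.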

Additional observations from a re-analysis of the deposited data

How the results depend on the processing

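Alternatives covered the normalization, pseudocount, minimum value, expected value, window, bin size and each library left out; the division into segments, the neighbour blocks, voom with scaling to the total only and a variance trend were chosen after seeing the data. The count of called capture pairs was 0 under every limma setting tried, and by voom 395, or 359 with scaling to the total only and 105 and 115 without growing replicates 1 and 2, and 238 and 450 without RIS replicates 1 and 2. For Hi-C pairs voom called 46, or 40 with scaling to the total only and 17, 33 and 34 without growing replicates 1 to 3, and 3 without either RIS replicate. With the replicate block voom called 288 capture and 35 Hi-C pairs and limma 0 of each, and the calls at the starts of APP-processing genes rose from 4 to 7. Those calls were 2 with a window of 280 kb, 6 with one of 1000 kb, 2 before balancing and 3 to 6 with a library left out. Insulation at the gene end was 0.14 before balancing (adjusted p = 0.0857), 0.47 with a window of 280 kb and 0.11 to 0.22 with a library left out, and at the promoter −0.019 with a window of 1000 kb. The contact blocks of the promoter with body, gene end and 3′ segment, and of the body with each side, kept their direction in cHi-C under all alternatives run. With the median in place of the mean, the Hi-C body with itself was 0.014, the body with the upstream flank 0.058 and the promoter with ADAMTS1 and ADAMTS5 −0.14. The last was −0.15 before balancing, −0.029 to 0.16 with a library left out and −0.25 within the libraries with many duplicates, where ADAMTS1 alone was −0.32, and ADAMTS5 alone was 0.0047 within those with few. Before balancing, the promoter was at −0.038 with the 5′ segment and −0.17 with the upstream side, and the 3′ and middle segments with themselves were at 0.28 and −0.079. The promoter with the middle segment was −0.24 with the median. The promoter with the downstream side ranged from −0.012 to 0.072 with a library left out, and the downstream side with itself from −0.0018 to 0.023. The 5′ segment with itself was 0.014 with the expected value of the captured region. The causes were not tested. Depth limits the thinly covered bins: where cHi-C pairs had 20 to 61 contacts, or Hi-C pairs 14 to 24, counting error alone is large.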
